A study of Mus musculus with 6 samples.

Results

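The peaks described here are those that the authors' annotation placed in coding exons, in the 5′ or 3′ untranslated regions (UTRs) of messenger RNAs, in exons of non-coding transcripts, or at gene ends. They were chosen by this annotation alone, with no use of peak height. Of the 22188 regions bound by at least 1 of 3 KLF3 constructs, 778 (3.51%) met the rule. They comprised 229 peaks at gene ends, 183 in coding exons, 168 in 3′ UTRs, 145 in 5′ UTRs and 53 in non-coding exons. The remaining peaks were at promoters (4452), in introns (7272) or intergenic (9686). Promoters covered the 1000 bp before and the 100 bp after a RefSeq transcription start site (TSS), and a peak that met several definitions kept only one of them. A gene end (transcription termination site, TTS) ran from 100 bp before to 1000 bp after the last base of a transcript.

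The study asked which parts of KLF3, beyond its zinc fingers, set where it binds in living cells. Murine embryonic fibroblasts (MEFs) lacking the endogenous gene (Klf3-/-, from C57BL/6 mice) received, by murine stem cell virus, V5-tagged full-length KLF3 (Klf3-V5), a CtBP-contact mutant (ΔDL-V5) or the zinc fingers with the adjacent nuclear localization sequence (DBD-V5). All 3 lines therefore shared the Klf3-/- background, a retroviral cDNA and puromycin selection, and each was a single clone, so clone and construct cannot be told apart. Chromatin was immunoprecipitated with anti-V5 antibody in 2 replicates per construct, each with its own input. The replicate lists rested on 5.46 and 18.1 M tags (KLF3), 1.77 and 10.2 M (ΔDL) and 7.81 and 8.38 M (DBD). Nothing in the labels states that replicates came from separate cultures, so their spread may be technical.

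KLF3 is a zinc finger transcription factor whose carboxyl-terminal fingers recognize CACCC boxes and related GC-rich elements. Its amino-terminal domain recruits the corepressor CtBP, which brings histone-modifying enzymes to target genes. ΔDL carries a change in the CtBP contact motif, whereas DBD lacks the amino-terminal domain altogether. A 5′ UTR lies directly downstream of the promoter, whereas a 3′ UTR or a gene end can be far from any start site of the same gene.

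The highest KLF3 peaks of each class, all but 1, carried the KLF core near their centers. The core was searched on both strands in the CACCC-box forms ACACCC and also CCACCC and, with a CpG, in the forms ACGCCC and also CCGCCC. The same letters occur in sites of the related Sp factors. The following 30-base stretches (mm9, 5′ to 3′, on the strand that carries the core) are from among the 3 highest KLF3 peaks of each class and show the core in capitals. They are given to show that the same core recurs in very different gene contexts.
Ahctf1, 5′ UTR, chr1:181734032-181734061, minus strand: acgccctacactACGCCCagcgcacaaagc
S100a6, 5′ UTR, chr3:90417038-90417067, minus strand: catccgtgaggtCCGCCCagggagtgctgg
Atf4, 5′ UTR, chr15:80085892-80085921, minus strand: cacgccctaaacCCGCCCtttatagcctcg
Med11, coding exon, chr11:70265831-70265860, minus strand: caccttctagacACACCCacctgagtgagg
Prox2, coding exon, chr12:86435104-86435133, plus strand: agtgagtcagccACGCCCcgcagcacgccc
Parp10, 3′ UTR, chr15:76063483-76063512, minus strand: gcaccgccagacACACCCgtcttggttgga
Ier2, 3′ UTR, chr8:87185557-87185586, minus strand: cagggtgtggacCCGCCCtagggactggga
Exoc3l, gene end, chr8:107813106-107813135, minus strand: tgtcttcagggcACGCCCtcccagagctct
B230208H11Rik, gene end, chr10:12636310-12636339, minus strand: agcaattctgacCCACCCagttcagctatt
Ctdsp1, gene end, chr1:74444082-74444111, minus strand: gcacttcctgccCCGCCCaggcggggttca
4933433H22Rik, non-coding exon, chr17:84485237-84485266, plus strand: ctccccagtgacCCACCCacttcctcttgg
Gm17762, non-coding exon, chr2:17950505-17950534, plus strand: cacaccccgtccCCACCCctgagagctggc
5330426P16Rik, non-coding exon, chr16:50732547-50732576, minus strand: aggcatccggccACACCCcgctctttaccc
The third coding exon peak by height, in Plec, is missing from these lines because it held no core in the central 100 bp, although 3 cores lay within its 401 bp.

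Among all members of a class, a core in the central 100 bp was found in 84.8% of the 5′ UTR peaks (123 of 145, 95% Wilson interval 78.1 to 89.8%). The share was 40.4% in coding exons (33.6 to 47.7%), 33.9% in 3′ UTRs (27.2 to 41.4%), 43.7% at gene ends (37.4 to 50.1%) and 54.7% in non-coding exons (41.5 to 67.3%). For comparison, 83.2% of promoter peaks, 34.4% of intron peaks, 24.1% of intergenic peaks and 40.2% of all peaks held a core in the same window. In windows of equal length 400 to 500 bp away, the shares were 34.8% for 5′ UTR, 19.4% for exon, 15.2% for 3′ UTR, 19.7% for gene-end and 21.7% for non-coding peaks. The central share was thus above the flanking share in each of the 5 classes. CCGCCC was the commonest form in 5′ UTR peaks (61.4%, against 62.3% at promoters). In 3′ UTR peaks ACACCC (14.9%), CCACCC (13.7%) and CCGCCC (11.3%) were found at like shares. The median G+C content of the 401 bp was 66.1% in 5′ UTR, 51.1% in exon, 45.1% in 3′ UTR, 46.9% in gene-end and 53.4% in non-coding peaks, against 63.3% at promoters and 44.9% over all peaks. Core shares and base composition followed nearly the same order of classes, and the part of base composition was not tested.

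Whether the KLF3 construct itself was called at the site divided the classes further. Of the 114 exon peaks listed for KLF3, 59.6% held a core in the central 100 bp, compared with 8.70% (6) of the 69 exon peaks listed only for ΔDL or DBD. In 3′ UTRs the shares were 55.7% (49 of 88) and 10.0% (8 of 80). At gene ends they were 63.4% (90 of 142) and 11.5% (10 of 87). In the peaks not listed for KLF3, the central share was not above the flanking share in exons (16.7%), 3′ UTRs (12.5%) or gene ends (12.1%). Over all peaks the central shares were 57.6% with a KLF3 listing and 9.88% without. A listing means that overlapping peaks were called in both replicates of that construct.

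**Figure D1:**
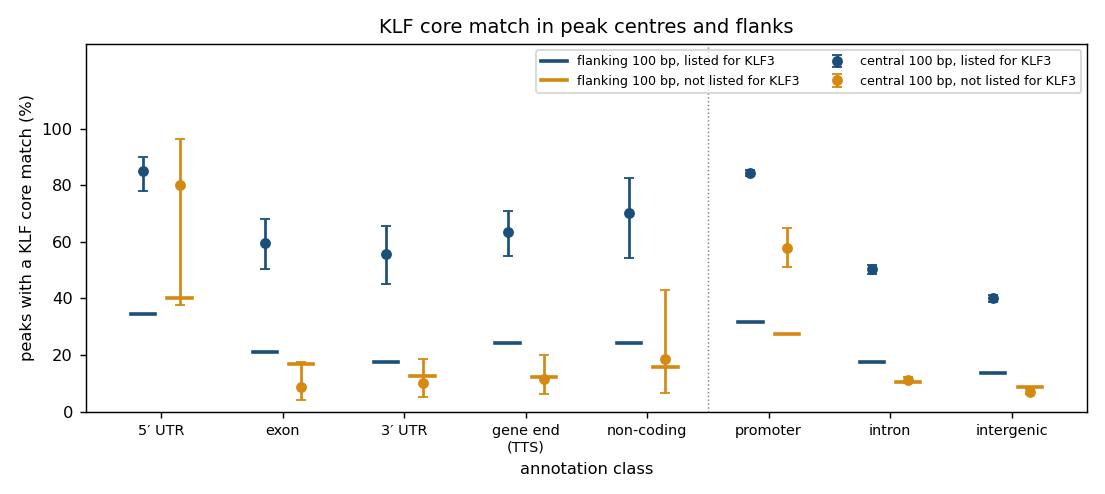
Share of peaks (%) with a KLF core in the central 100 bp (points with 95% Wilson intervals over peaks) and in the flanking windows (horizontal bars), by annotation class, for peaks listed for KLF3 (blue) and peaks listed only for ΔDL or DBD (orange). In exons, 3′ UTRs and gene ends the blue points lie between 55.7% and 63.4%, and the orange points between 8.70% and 11.5%.

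Sites of other factors differed between the classes in their shares. The AP-1 site (TGACTCA or TGAGTCA) lay in the central 100 bp of 10.0% of gene-end peaks (23 of 229), 5.36% of 3′ UTR peaks, 4.92% of exon peaks, 3.77% of non-coding peaks and 3.45% of 5′ UTR peaks. Over all peaks it was in 7.69%, in introns in 10.5% and at promoters in 1.91%. For gene ends the share was 14.8% among the 142 peaks listed for KLF3 and 2.30% among the others, with 2.11% and 1.15% in the flanks. The ETS site (CCGGAAG) was in 7.59% of 5′ UTR peaks (11 of 145) and in at most 1.89% of peaks of the other 4 classes, against 11.1% at promoters and 2.82% over all peaks. The RUNX (TGTGGTT), TEAD (GGAATG) and CCAAT letters were in at most 4.37%, 7.55% and 13.5% of the peaks of any of the 5 classes, against 3.43%, 7.24% and 14.7% of all peaks. All letters were searched on both strands.

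The classes took different shares of the 3 binding profiles. Of the peaks in the KLF3 replicate lists, 0.814% and 1.33% were in 5′ UTRs, compared with 0.174% and 0.435% in the ΔDL lists and 0.0655% and 0.0864% in the DBD lists. The mean shares were 1.07 ± 0.366%, 0.305 ± 0.184% and 0.0759 ± 0.0147% (SD, n = 2 lists each), and the 3 pairs of lists did not overlap. The DBD lists held only 6 and 7 peaks of this class. The 3′ UTR shares ran in the opposite order, at 0.628% and 0.612% in the KLF3 lists, 0.831% and 0.776% in the ΔDL lists and 1.06% and 0.962% in the DBD lists, again without overlap. Gene-end shares lay between 1.04% and 1.14% in all 6 lists. The classes of a list share a single total, so a lower promoter share leaves more for the others. Mean promoter shares were 25.5% in KLF3, 11.6% in ΔDL and 2.20% in DBD. Mean intergenic shares were 37.4%, 50.1% and 58.4%, and intron shares rose in the same order. The 3′ UTR order is thus not particular to that class. Shares among non-promoter peaks alone were not tested, for 3′ UTRs or gene ends. For exons, the KLF3 lists had 0.792% and 1.27%, the ΔDL lists 0.843% and 0.788%, and the DBD lists 0.950% and 0.740%, so that the lists of different constructs overlapped. In non-coding exons, the KLF3 lists had 0.232% and 0.293%, the ΔDL lists 0.134% and 0.230%, and the DBD lists 0.0983% and 0.123%. Lists did not overlap in 10 of the 15 comparisons of these classes, and over all 8 classes they did not overlap in 79.2% of 24. With 2 lists against 2, the two-sided exact permutation test cannot go below p = 0.333, which was its value for each of these 10 comparisons (0.5 after Benjamini-Hochberg adjustment over 15 comparisons), so no difference passed.

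**Figure D2:**
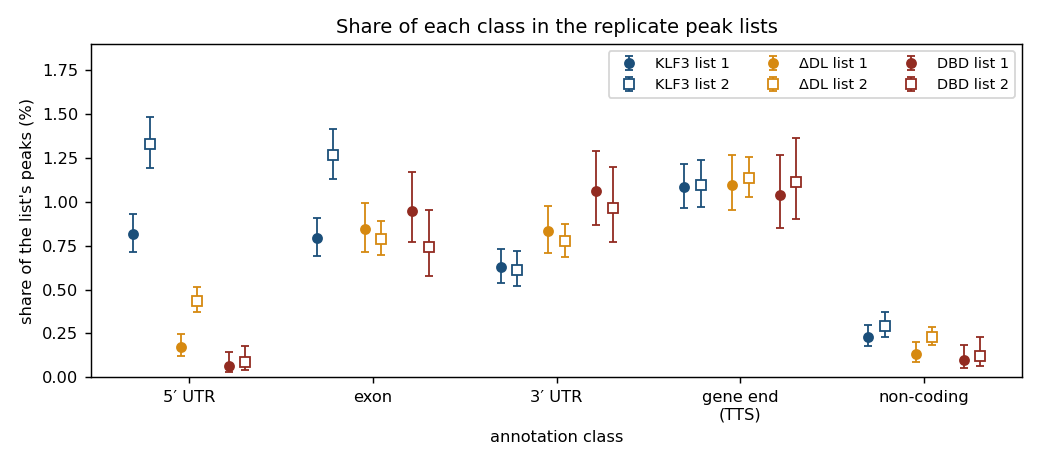
Share of the peaks of each replicate list (%) that fell in each of the 5 classes, with 95% Wilson intervals over peaks; filled circles are replicate 1 and open squares replicate 2. KLF3 lists are highest and DBD lists lowest for 5′ UTRs, DBD lists are highest for 3′ UTRs, and all lists are between 1.04% and 1.14% at gene ends.

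The 5′ UTR peaks were nearly all KLF3 peaks. Of the 145, 140 (96.6%) were listed for KLF3, 25 (17.2%) for ΔDL and 3 (2.07%) for DBD. Over all peaks the shares were 63.6%, 55.2% and 22.3%, and at promoters 95.7%, 22.9% and 1.44%. A total of 120 were listed for KLF3 alone, and 3 (2.07%, against 10.5% of all peaks) for all 3 constructs. Peak height was the number of tags in 400 bp with both replicates combined and normalized to 100 M tags, a window of the same length for every peak. The median height was 302 tags in KLF3 (quartiles 217 and 461), 163 in ΔDL and 39.1 in DBD. On the log2 scale the median difference from KLF3 was −0.91 for ΔDL (95% order-statistic interval over peaks, −1.08 to −0.71) and −2.99 for DBD (−3.20 to −2.79). Heights at least 2-fold lower than KLF3 were found for ΔDL at 68 peaks (46.9%, against 14.9% of all peaks) and for DBD at 141 (97.2%, against 52.6%). ΔDL was at least 2-fold higher at 3 peaks (2.07%, against 28.9%), and DBD at none (against 3.27%). At promoters the corresponding medians were −0.68 and −2.99, so for DBD both classes had the same value.

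Heights have no replicate values, and no test was made on them. The authors deposited the KLF3, ΔDL and DBD heights a second time for listed peaks, and over the members these repeats differed by a median of 0.01 to 0.02 and at most 0.09 on the log2 scale. Scale matters more. At the 2334 peaks called for all 3 constructs, setting the median heights equal moves every ΔDL difference by −1.06 and every DBD difference by −0.42, and moves the median over all peaks from 0.42 to −0.64 for ΔDL and from −1.45 to −1.87 for DBD. Such a shift leaves the order of the classes as it is, so each class median is best read against the median over all peaks. The shift does change counts at 2-fold, which are given without it unless stated. With it, ΔDL was at least 2-fold higher than KLF3 in 0.397% of all peaks instead of 28.9%. This held for 1 exon, 1 gene-end and 0 3′ UTR peaks. ΔDL was then at least 2-fold lower in 43.0% of all peaks instead of 14.9%, and in 93.1% of 5′ UTR peaks instead of 46.9%. Heights of peaks not listed for KLF3 are also low in KLF3 by selection, and for that reason values are given for the KLF3-listed peaks of each class as well.

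The shares differed between peaks with and without a KLF3 listing. Among KLF3-listed peaks, ΔDL heights were lower by 2-fold or more in 48.6% of 5′ UTR, 29.8% of exon, 20.5% of 3′ UTR, 26.1% of gene-end and 32.4% of non-coding peaks, against 23.3% of all 14115 KLF3-listed peaks. A ΔDL height at least 2-fold above KLF3 was found there in 14.9% of exon, 20.5% of 3′ UTR and 8.45% of gene-end peaks, against 11.0%, so that in 3′ UTRs both directions had the same share. For DBD, the shares at least 2-fold lower were 97.9%, 71.1%, 68.2%, 80.3% and 97.3% in the same order of classes, against 79.2%, and no member was 2-fold higher (0.184% of all). Among the 8073 peaks not listed for KLF3, ΔDL was at least 2-fold higher in 60.0% and lower in 0.124%, and DBD was higher in 8.67% and lower in 6.06%. Of the unlisted members, ΔDL was at least 2-fold higher in 40 of 69 exon, 50 of 80 3′ UTR and 55 of 87 gene-end peaks, and DBD in 6, 9 and 5. In the 16 unlisted non-coding peaks ΔDL was at least 2-fold higher at 10 and lower at none, and DBD higher at 1 and lower at 3. The 5 unlisted 5′ UTR peaks differed in this, with DBD at least 2-fold lower at 4 and higher at none (median −1.49), and ΔDL higher at 2. Promoter peaks were alike in this. Of the 193 not listed for KLF3, DBD was at least 2-fold lower at 138 (71.5%) and higher at none (median −2.21). The ΔDL direction follows in part from the selection.

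The highest 5′ UTR peak was in exon 1 of Ahctf1 (chr1:181733846-181734246, mm9), which encodes the nucleoporin ELYS. Its height was 1380 tags in KLF3, 765 in ΔDL and 120 in DBD. Before normalization the called peak held 85 and 178 tags in the KLF3 replicates, 8 and 60 in the ΔDL replicates, and 9 in DBD replicate 2, with no call in DBD replicate 1. The peak in exon 1 of S100a6, a calcium-binding protein gene (chr3:90416851-90417251), reached 1305, 798 and 68.1 tags. That of Atf4, a transcription factor of the stress response (chr15:80085701-80086101), reached 1144, 709 and 103 tags. All 3 genes were listed for KLF3 and ΔDL but not DBD, and their cores are among the sequences shown.

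Single 5′ UTR peaks departed widely from the class median. In each class, extremes of ΔDL relative to KLF3 are named among peaks of at least 256 tags in KLF3 for the lowest and in ΔDL for the highest, since differences at lower heights rest on few tags. The lowest values were at the chloride channel gene Clcn2 (chr16:20716126-20716526), with 776 tags in KLF3 and 133 in ΔDL, and at 2310022B05Rik (chr8:127186968-127187368), with 440 and 84.4. Neither was called in a ΔDL replicate. The opposite order was seen at Mrpl24, a mitochondrial ribosomal protein gene (chr3:87723392-87723792), with 126 tags in KLF3 and 288 in ΔDL, and at the RNA-binding protein gene Rbm15 (chr3:107135882-107136282), with 169 and 350. Mrpl24 was called in both ΔDL replicates (6 and 18 tags) and in neither KLF3 replicate. The highest DBD heights of the class were at Pramef8 (chr4:143002348-143002748), with 867 tags in KLF3, 1252 in ΔDL and 290 in DBD, and at the small GTPase gene Rab33b (chr3:51287884-51288284), with 600, 491 and 224. Both were called in all 6 replicate lists.

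Peaks in coding exons divided between promoter-like and distal sites. Of the 183, 114 (62.3%) were listed for KLF3, 95 (51.9%) for ΔDL and 41 (22.4%) for DBD, and 21 (11.5%) for all 3, close to the 63.6%, 55.2%, 22.3% and 10.5% of all peaks. Median heights were 154 tags in KLF3, 161 in ΔDL and 76.1 in DBD. The median difference from KLF3 was 0.59 for ΔDL (0.21 to 0.80) and −0.39 for DBD (−1.46 to −0.13), and after the common scaling it was −0.47 and −0.81. Exon peaks with ΔDL at least 2-fold below KLF3 numbered 34 (18.6%, against 14.9% of all peaks), and those at least 2-fold above it 57 (31.1%, against 28.9%). DBD was at least 2-fold lower at 82 (44.8%, against 52.6%) and higher at 6 (3.28%, against 3.27%). Among the 114 listed for KLF3, the ΔDL median turned to −0.585 and the DBD median was −2.285.

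The position of the exon within its transcript separated these values. The 39 peaks in first coding exons lay a median of 329 bp from a TSS, held a core in 82.1%, and had median heights of 278 tags in KLF3, 136 in ΔDL and 34.3 in DBD. The 115 peaks in internal exons lay a median of 16749 bp from a TSS, held a core in 27.0%, and had median heights of 115, 160 and 91.1 tags. The first-exon values were close to those of the 127 5′ UTR peaks in first exons, at 302, 163 and 38.9 tags.

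The highest exon peak was in exon 2 of Med11, a subunit gene of the Mediator complex (chr11:70265639-70266039), with 962 tags in KLF3, 449 in ΔDL and 106 in DBD. Prox2, a homeobox gene, had 820, 422 and 41.6 tags in exon 2 (chr12:86434907-86435307), 12274 bp from the TSS, and its called peak held 38 and 112 tags in the KLF3 replicates. Plec, which encodes the cytolinker plectin, had 729, 452 and 51.6 tags in exon 16 of 32 (chr15:76018823-76019223). Each of these was higher in KLF3 than in both mutants. The lowest ΔDL values relative to KLF3, with the same limit, were in exon 101 of 118 of the type VII collagen gene Col7a1 (chr9:108880503-108880903), with 292 tags in KLF3, 54.2 in ΔDL and 29.9 in DBD, and in exon 1 of Syde2 (chr3:145651132-145651532), with 269, 50.6 and 18.4. Among the highest DBD values of the class was exon 5 of Hsp90b1, a chaperone gene of the endoplasmic reticulum (chr10:86164388-86164788), with 333 tags in KLF3, 744 in ΔDL and 345 in DBD. It was called in all 6 lists, with 26 tags or more in each.

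Of the 5 classes, 3′ UTR peaks had the highest ΔDL and DBD values relative to KLF3. Of the 168, 88 (52.4%) were listed for KLF3, 111 (66.1%) for ΔDL and 51 (30.4%) for DBD, and 21 (12.5%) for all 3. All peaks had 63.6%, 55.2%, 22.3% and 10.5%, and intergenic peaks 51.6%, 68.2%, 30.9% and 14.4%. Median heights were 115 tags in KLF3, 185 in ΔDL and 91.8 in DBD. The median difference from KLF3 was 0.855 for ΔDL (0.72 to 0.95) and 0.25 for DBD (−0.15 to 0.33), and after the common scaling both turned negative, at −0.205 and −0.17. Over all peaks the unscaled medians were 0.42 and −1.45, and for intergenic peaks 0.86 and 0.17. ΔDL was at least 2-fold higher than KLF3 at 68 peaks (40.5%, against 28.9% of all peaks) and at least 2-fold lower at 18 (10.7%, against 14.9%). With the common scaling these counts became 0 (against 0.397% of all peaks) and 55 (32.7%, against 43.0%). DBD was at least 2-fold lower at 63 (37.5%, against 52.6%) and higher at 9 (5.36%, against 3.27%). Among the 88 listed for KLF3, however, the medians were −0.23 for ΔDL and −2.15 for DBD, against −0.35 and −2.54 over all KLF3-listed peaks.

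The highest 3′ UTR peaks in KLF3 followed the KLF3-listed pattern. The last exon of Parp10, an ADP-ribosyltransferase gene (chr15:76063327-76063727), had 910 tags in KLF3, 685 in ΔDL and 47.8 in DBD. The immediate-early gene Ier2, which consists of a single exon (chr8:87185372-87185772), had 798, 335 and 33.4 tags at 1179 bp from its own TSS. Under the same limit, ΔDL was lowest relative to KLF3 at Sap30bp (chr11:115826322-115826722), with 324 tags in KLF3, 85.0 in ΔDL and 9.85 in DBD, and at Phactr4 (chr4:131912169-131912569), with 657, 186 and 45.9.

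Other 3′ UTR peaks were higher in a mutant. At Frmd4a (chr2:4532258-4532658) the heights were 98.4 tags in KLF3, 302 in ΔDL and 161 in DBD, and the peak was called in both replicates of each mutant and in replicate 1 of KLF3 with 9 tags. The highest DBD value among the 778 peaks was in the 3′ UTR of Lars2, a mitochondrial leucyl-tRNA synthetase gene (chr9:123370912-123371312), with 609 tags in DBD, 405 in KLF3 and 320 in ΔDL. It was called in both DBD replicates (51 and 46 tags) and in no KLF3 or ΔDL replicate, in spite of heights there above the class medians. It held no core within its 401 bp. Heights are not corrected for input, and the input signal at this site was not examined.

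Gene-end peaks were the largest class and the closest to the average of all peaks. Of the 229, 142 (62.0%) were listed for KLF3, 137 (59.8%) for ΔDL and 51 (22.3%) for DBD, and 25 (10.9%) for all 3, compared with 63.6%, 55.2%, 22.3% and 10.5% of all peaks. Median heights were 165 tags in KLF3, 179 in ΔDL and 76.1 in DBD. The median difference from KLF3 was 0.43 for ΔDL (0.12 to 0.77) and −1.33 for DBD (−1.84 to −0.17), compared with 0.42 and −1.45 over all peaks, and after the common scaling it was −0.63 and −1.75. ΔDL was at least 2-fold higher at 67 (29.3%) and lower at 37 (16.2%), while DBD was lower at 120 (52.4%) and higher at 5 (2.18%). Over all peaks these 4 shares were 28.9%, 14.9%, 52.6% and 3.27%. The label was checked against gene ends of the GENCODE annotation on the same build, in which 210 of the 229 genes could be matched. Peak centers lay a median of 430 bp past the nearest annotated end of that gene, 185 of 210 (88.1%) were past it and 203 were within 1000 bp. For the 158 matched 3′ UTR peaks the median was −425 bp, that is before the gene end.

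A gene end can also lie beside the start of another gene. For 36 gene-end peaks the nearest TSS was under 1 kb away, and in 24 of these it belonged to a different gene. The highest gene-end peak was such a case. It lay at the end of Exoc3l, 317 bp from the TSS of 4931428F04Rik (chr8:107812911-107813311), and had 1361 tags in KLF3, 1113 in ΔDL and 111 in DBD. The others were at the end of the non-coding gene B230208H11Rik (chr10:12636141-12636541), with 1235, 680 and 194 tags, and at the end of the phosphatase gene Ctdsp1, which hosts Mir26b (chr1:74443909-74444309), with 891, 498 and 145. Under the same limit, ΔDL was lowest relative to KLF3 at the actin-binding Xirp1 (chr9:119922542-119922942), with 261 tags in KLF3, 38.9 in ΔDL and 41.6 in DBD, and at Timm44, a mitochondrial import gene (chr8:4258619-4259019), with 282, 45.3 and 15.8. Higher ΔDL than KLF3 was seen at Rin3 (chr12:103629061-103629461), with 99.7 and 274 tags, and at Mzt2 (chr16:15848190-15848590), with 126 and 338. The highest DBD heights were at the non-coding gene Dleu2 (chr14:62221302-62221702), with 239 tags in KLF3, 523 in ΔDL and 340 in DBD, and at Rhebl1 (chr15:98707799-98708199), with 367, 657 and 302. Both were called in all 6 lists.

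Non-coding exon peaks, the smallest class, lay between the 5′ UTR peaks and the other classes. Of the 53, 37 (69.8%) were listed for KLF3, 19 (35.8%) for ΔDL and 2 (3.77%) for DBD, and none for all 3, against 63.6%, 55.2%, 22.3% and 10.5% of all peaks. Median heights were 252 tags in KLF3, 162 in ΔDL and 56.5 in DBD. The median difference from KLF3 was −0.16 for ΔDL (−0.45 to 0.15) and −2.35 for DBD (−2.74 to −1.80). ΔDL was at least 2-fold lower at 12 (22.6%, against 14.9% of all peaks) and higher at 10 (18.9%, against 28.9%), and DBD lower at 39 (73.6%, against 52.6%) and higher at 1 (1.89%, against 3.27%). First exons, with 13 peaks, all within 1 kb of a TSS, had median heights of 294, 140 and 45.3 tags, and all 13 held a core. The 18 in last exons had 189, 164 and 64.7 tags, with a core in 38.9%.

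The highest non-coding peak in KLF3 was in exon 4 of 6 of 4933433H22Rik (chr17:84485055-84485455), with 815 tags in KLF3, 425 in ΔDL and 114 in DBD. Gm17762 (chr2:17950324-17950724) had 699, 512 and 22.6 tags, and 5330426P16Rik (chr16:50732357-50732757) had 695, 622 and 87.4. Under the same limit, the lowest ΔDL values were at 4933439C10Rik (chr11:59319617-59320017), with 324 and 69.1 tags, and at the pseudogene Hmga2-ps1 (chr1:178765864-178766264), with 298 and 65.3, where reads may be shared with Hmga2. In contrast, 1700096K18Rik (chr5:25036117-25036517) had 152 tags in KLF3, 407 in ΔDL and 146 in DBD, and C730002L08Rik (chr19:20610967-20611367) had 252, 340 and 71.0. Kcnq1ot1, the antisense transcript of an imprinted domain, held 2 of the members. One of them (chr7:150419297-150419697) had the second highest DBD height of the class, with 126 tags in DBD and 184 in ΔDL.

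**Figure D3:**
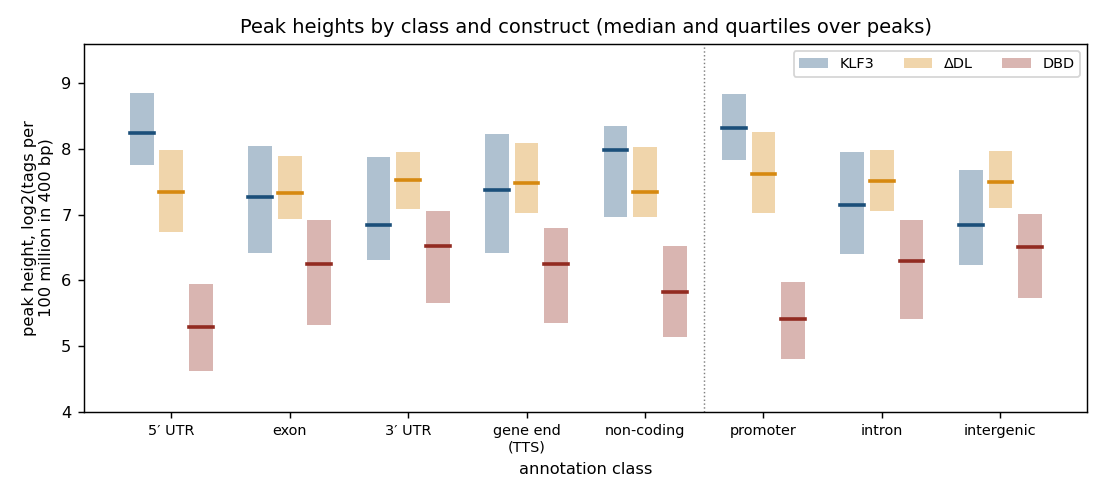
Peak heights, log2 of tags per 100 M in 400 bp, by annotation class and construct; lines are medians and shaded boxes span the quartiles over peaks, with the 5 classes left of the dotted line and promoter, intron and intergenic peaks right of it. KLF3 is the highest construct in 5′ UTR (median 8.24) and non-coding peaks (7.98), and ΔDL is the highest in 3′ UTR peaks (7.53 against 6.85 for KLF3).

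Within the exon, gene-end and non-coding classes, the median differences from KLF3 were higher in the bands farther from a TSS. The bands were chosen after the values were seen, and the annotation itself fixes much of the distance: 135 of 145 5′ UTR peaks but only 2 of 168 3′ UTR peaks lay within 1 kb. The 53 exon peaks within 1 kb of a TSS had a median ΔDL difference from KLF3 of −0.83 and a DBD difference of −3.02. The 47 exon peaks at 1 to 10 kb had 0.15 and −1.53, and the 83 at 10 kb or more had 0.96 and 0.25. Gene-end peaks changed in the same order, from −0.42 and −2.51 for the 36 within 1 kb, through 0.335 and −1.62 for the 110 at 1 to 10 kb, to 0.91 and 0.09 for the 83 beyond. Non-coding peaks had ΔDL medians of −0.82 (22 peaks), −0.105 (22) and 0.43 (9), and DBD medians of −2.67, −2.045 and −1.59. The other 2 classes had few peaks in at least 1 band. In 3′ UTRs the 2 peaks within 1 kb had medians of −0.34 and −2.245. The 67 at 1 to 10 kb had 0.76 and 0.03, and the 99 beyond had 0.91 and 0.27. Median KLF3 heights in these larger bands were 114 and 115 tags. In 5′ UTRs the 135 peaks within 1 kb had −0.91 and −3.04, the 9 at 1 to 10 kb had −1.02 and −2.81, and 1 peak lay farther away. Over all peaks the 3 bands had ΔDL medians of −0.70, 0.14 and 0.88, and DBD medians of −2.97, −1.86 and 0.18. Within 1 kb, the medians of exon (−0.83), 5′ UTR (−0.91) and non-coding peaks (−0.82) for ΔDL were all near that of promoters (−0.68). KLF3 listings declined in parallel, from 48 of 53 exon peaks within 1 kb to 33 of 83 at 10 kb or more. With KLF3-listed peaks only, the exon bands (48, 33 and 33 peaks) had ΔDL medians of −0.91, −0.60 and 0.80 and DBD medians of −3.08, −2.08 and −0.31. The gene-end bands (29, 73 and 40 peaks) had −0.81, −0.51 and −0.025 for ΔDL, with −2.82, −2.74 and −1.98 for DBD. KLF3-listed 3′ UTR peaks at 1 to 10 kb (34) and beyond (52) had −0.42 and −0.06 for ΔDL. Their DBD medians were −2.545 and −1.785, and their median KLF3 heights 257 and 163 tags. Over all KLF3-listed peaks (5037, 2097 and 6981) the ΔDL medians were −0.74, −0.37 and 0.07, and the DBD medians −3.00, −2.52 and −2.03.

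The number of cores within the 401 bp ordered the constructs in opposite ways. Exon peaks with no core (61) had median heights of 92.4 tags in KLF3, 182 in ΔDL and 115 in DBD, and those with 3 or more (54) had 269, 147 and 37.5. In 3′ UTRs the medians were 93.1 tags in KLF3 and 193 in ΔDL with no core (65 peaks), and 291 and 186 with 3 or more (30). At gene ends they were 82.7, 165 and 97.0 with no core (76), and 305, 195 and 41.9 with 3 or more (52). KLF3 medians were thus higher, and DBD medians lower, in the peaks richer in cores, whereas ΔDL medians followed no single direction. The same was seen outside these classes. Intron peaks with no core had medians of 96.3 tags in KLF3 and 106 in DBD, and those with 3 or more had 277 and 43.1. Intergenic peaks had 91.8 and 108 with no core, and 282 and 48.8 with 3 or more. Cores were also more frequent in KLF3-listed peaks, and peaks were not divided by listing here. These values are a description over peaks, without a test.

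At the limit between the classes the values were alike. The 90 5′ UTR, exon and non-coding peaks centered 101 to 200 bp past a TSS had median heights of 305 tags in KLF3, 158 in ΔDL and 37.8 in DBD. The 505 promoter peaks between the TSS and 100 bp past it had 296, 181 and 37.0 tags. The only member of these classes at 100 bp was Ahctf1.

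**Figure D4:**
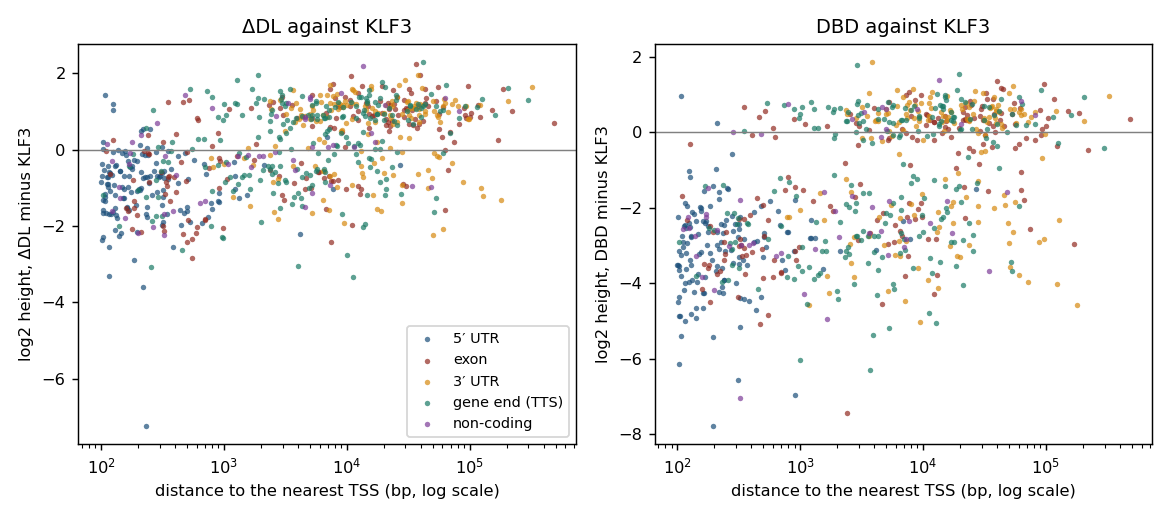
Difference in log2 height between ΔDL and KLF3 (left) and between DBD and KLF3 (right) for each of the 778 peaks, against the distance to the nearest TSS in bp (log scale), colored by class. Exon peaks (medians −0.83 and −3.02 within 1 kb, 0.96 and 0.25 at 10 kb or more) and gene-end peaks (−0.42 and −2.51, 0.91 and 0.09) are spread over both ends of the axis, and most 5′ UTR peaks lie within 1 kb and below 0.

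Among KLF3-listed peaks at 10 kb or more from a TSS, the median DBD difference from KLF3 was higher in exons than in introns. This band has no upper limit, and distances within it were not matched. To set listing aside, the KLF3-listed peaks at 10 kb or more from a TSS were compared across classes. The 33 exon peaks had median heights of 186 tags in KLF3, 304 in ΔDL and 147 in DBD, against 194, 217 and 56.1 tags for 2749 intron peaks. The median DBD difference from KLF3 was −0.31 in exons (−1.05 to 0.10), −1.785 in 3′ UTRs (52 peaks, −2.40 to −0.04), −1.98 at gene ends (40 peaks, −2.72 to −1.34) and −2.12 in introns (−2.19 to −2.05). Among the exon peaks, 11 of 33 (33.3%, 19.8 to 50.4%) had a DBD height at least 2-fold below KLF3, and among the intron peaks 67.9%. A core lay in the central 100 bp of 27.3% of these exon peaks and 39.7% of the intron peaks, with a median G+C content of 44.9% and 44.6%. Of the 33, 4 were exons of Klf3, described next. Without them the DBD median was −0.07 for 29 peaks, with a wider interval (−1.53 to 0.31), and 11 (37.9%, 22.7 to 56.0%) were at least 2-fold lower. The intervals are over peaks, and no replicate heights exist to test this difference.

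Klf3 itself, the gene that was inactivated in these cells and reintroduced as a cDNA, held 4 members in 4 different exons. Among 753 transcripts with a member, 21 had more than 1. Klf3 was singled out after its values were seen. On mm9 chromosome 5, its exon 3 (chr5:65213032-65213432) had 455 tags in KLF3, 1105 in ΔDL and 236 in DBD. Exon 4 (chr5:65213987-65214387) had 292, 929 and 199 tags. Exon 5 (chr5:65218208-65218608) had 315, 923 and 236 tags. Exon 6 (chr5:65220119-65220519) had 355, 917 and 252 tags. ΔDL was thus 1.28 to 1.67 above KLF3 on the log2 scale in all 4, whereas at the Klf3 promoter (chr5:65194160-65194560) the order was 1136 tags in KLF3, 639 in ΔDL and 72.0 in DBD. A peak in intron 1 (chr5:65203294-65203694) had 635, 820 and 62.2 tags.

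Calls in the single replicates followed the exons. Both KLF3 replicates had called peaks touching exons 3, 4, 5 and 6 of Klf3. ΔDL replicate 1 had them in exons 3 and 5, and replicate 2 in exons 2 to 6. DBD replicate 1 had 5 peaks in the gene, all touching exons 3 to 6, with up to 26 tags, and DBD replicate 2 had none. The DBD calls in these exons therefore came from 1 replicate only. In the GENCODE transcript, exon 3 codes for residues 20 to 181, in the amino-terminal part, and exon 6 for residues 285 to 344, which end the zinc finger region. None of the 4 exon peaks held a core in the central 100 bp. The V5 constructs carry Klf3 coding sequence, that of DBD-V5 without the amino-terminal domain. In exon 3, DBD replicate 1 had 2 called peaks with up to 17 tags. The part of the constructs in the Klf3 exon peaks was not tested.

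Without the 4 Klf3 peaks, the median of the exon class was 0.56 for ΔDL and −0.33 for DBD, compared with 0.59 and −0.39.

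**Figure D5:**
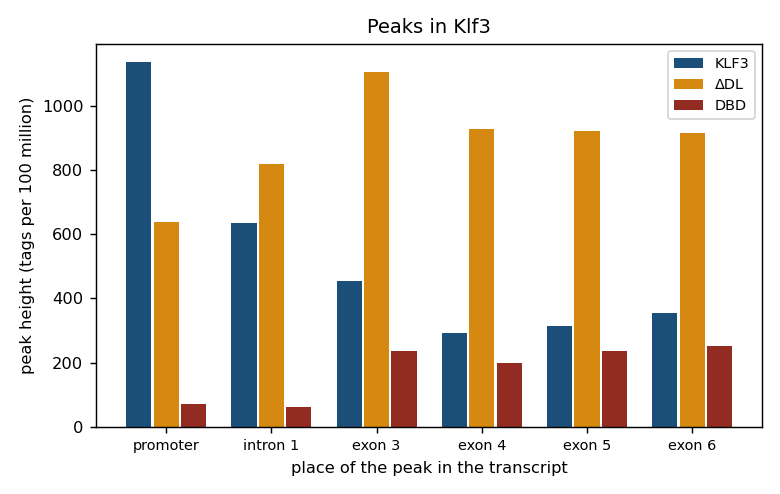
Peak heights (tags per 100 M, bars from 0) at the peaks annotated to Klf3 for KLF3, ΔDL and DBD, in order along the transcript. KLF3 is the highest construct at the promoter (1136 tags), and ΔDL is the highest in every exon shown (917 to 1105 tags).

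Members were also compared with the KLF3-listed promoter peak of their own gene, taking the highest where there were several. Of the 778, 171 had one. Among the 121 of these that were themselves listed for KLF3, the median height in KLF3 was 249 tags at the member and 362 at the promoter, and the member was higher in 34. The ΔDL difference from KLF3 was higher at the member in 23 of 35 exon pairs, 19 of 26 3′ UTR pairs and 23 of 29 gene-end pairs, but in only 10 of 26 5′ UTR pairs. In the gene-end pairs the median was −0.25 at the member and −0.98 at the promoter. In the 5′ UTR pairs it was −1.41 and −0.96. The DBD difference was higher at the member in 27 of 35 exon pairs, 20 of 26 3′ UTR pairs, 16 of 29 gene-end pairs and 14 of 26 5′ UTR pairs. These pairs share libraries and scaling, so a scaling factor cannot change which of the 2 peaks is higher in this measure. Intron and intergenic peaks were not paired in this way, so these counts have no background share beside them. Over all KLF3-listed peaks, ΔDL medians were −0.74 within 1 kb of a TSS and 0.07 at 10 kb or more. The DBD medians were −3.00 and −2.03, so higher differences away from promoters are not particular to these classes.

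Detection in the single replicates also differed between the classes. A peak overlapping the member by at least 1 bp was called for 97.2% and 98.6% of 5′ UTR members in the KLF3 replicates. ΔDL replicates called 28 and 87 of these 145 (19.3% and 60.0%), and DBD replicates 7 and 5 (4.83% and 3.45%). For 3′ UTR members the shares were 73.2% and 56.0% in KLF3, 66.7% and 85.1% in ΔDL, and 45.8% and 33.3% in DBD. Over all peaks they were 80.1% and 66.7% in KLF3, 57.4% and 82.8% in ΔDL, and 31.0% and 27.4% in DBD. The part of the number of tags behind each list, 1.77 and 10.2 M in the ΔDL replicates, was not tested. All 6 lists called 21 of 168 3′ UTR (12.5%), 21 of 183 exon (11.5%), 26 of 229 gene-end (11.4%), 3 of 145 5′ UTR (2.07%) and no non-coding members, against 10.6% of all peaks. Class peaks were also compared with their own list by the peak caller's score. The median log2 score of 5′ UTR peaks was 0.110 ± 0.0593 above the list for KLF3, 0.119 ± 0.0103 above it for ΔDL, and −0.114 ± 0.0535 relative to it for DBD (SD, n = 2 lists each). None of the 15 comparisons of this kind passed the exact permutation test (smallest p = 0.333, smallest adjusted p = 1).

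Exon peaks were the most conserved. The median over peaks of the mean PhastCons score was 0.40 in exons (166 peaks with a value), 0.29 in 5′ UTRs, 0.135 in 3′ UTRs, 0.11 at gene ends and 0.155 in non-coding exons, compared with 0.22 at promoters, 0.07 in introns and 0.09 over all peaks. In exons the median was 0.40 both with and without a KLF3 listing, whereas at gene ends it was 0.175 with and 0.06 without.

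Of 11 gene lists, 9 had a member. They held 15 genes with a member in these classes and 19 peaks in all. The KLF and Sp factors had 7 peaks in 4 of 26 genes: the 4 Klf3 exons, the ends of Klf6 and Klf16 and the 3′ UTR of Klf13. All 7 were listed for KLF3. Among the AP-1 factors, Atf4 was described above and Junb had a gene-end peak, and at both the DBD height was less than that of KLF3 by 2-fold or more. The Hippo pathway had the 5′ UTR of the TEAD factor Tead4 (chr6:128250315-128250715; 265 tags in KLF3, 172 in ΔDL and 26.7 in DBD) and an exon of the coactivator gene Wwtr1. The oncogene Myc, from the list of G1 cell cycle genes, had a peak in the 5′ UTR of exon 1 (chr15:61816858-61817258) with 662 tags in KLF3, 231 in ΔDL and 34.3 in DBD. It was called with 29 and 93 tags in KLF3 and 5 and 18 in ΔDL, and in neither DBD replicate. The ETS factor gene Elf4 had 744, 307 and 58.1 tags at its end (chrX:45763220-45763620). Zfp36l2, which encodes a protein of AU-rich mRNA decay, had 657, 399 and 52.7 tags at its end (chr17:84582792-84583192) and another member in the 3′ UTR. A total of 17 peaks were listed for KLF3, and the others were the 3′ UTR peak of Zfp36l2 and exon 6 of Skil, a co-repressor gene of the TGF-beta pathway (chr3:31016238-31016638), with 103 tags in KLF3, 159 in ΔDL and 128 in DBD. RUNX factors and the CtBP complex had no member. The lists of actomyosin, collagen and integrin genes had the Plec and Col7a1 exons described above. Of the 19 peaks, 4 were at least 2-fold lower in ΔDL than in KLF3 and 5 were higher, of which 4 were the Klf3 exons, and DBD was lower at 13 and higher at none. Over all peaks the shares were 14.9% and 28.9% for ΔDL and 52.6% and 3.27% for DBD, and over the KLF3-listed peaks 23.3% and 11.0%, and 79.2% and 0.184%.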

How the data were processed

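ChIP-seq peak tables of KLF3, ΔDL and DBD were used, with 2 replicates per construct. Per the submitters' processing notes, FastQC 0.10.1, Bowtie2 2.0.0, SAMtools 0.1.18 and HOMER 4.1 were used on mm9. The authors called peaks in each replicate against its paired input, requiring 5-fold enrichment and a false discovery rate of 0.001, and kept those overlapping between replicates. The deposited peak heights are log2 values of tags in 400 bp normalized to 100 M tags, with both replicates combined. The deposited replicate lists hold a signal (normalized tags) and a peak score per peak, from which tag numbers before normalization were recovered. The deposited G+C and CpG contents are fractions and the PhastCons conservation is a score from 0 to 1. The classes are those of the deposited annotation. 9 per-sample columns (focus ratios and scores of merged peaks) were not used. Inputs enter only through peak calling, and expression data were not analysed here.

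Class shares and scores were compared over replicate lists with two-sided exact permutation tests. Heights have no replicate values and were described by medians with 95% order-statistic intervals over peaks, and shares by 95% Wilson intervals. Such intervals cover counting error only, and peaks are not replicates. In KLF3, ΔDL and DBD, 1 tag of the pooled libraries equals 4.29, 8.45 and 6.23 normalized tags. Sequences and motifs were read from mm9 (NCBIM37) at the deposited coordinates, and gene ends and exons from GENCODE. The recomputed G+C content equalled the deposited one in 18373 of 18373 peaks with a value. Scripts ran under Python 3.11.15 (scipy 1.17.1, pysam 0.24.0, pandas 2.3.3, numpy 2.4.6) and were tested on simulated data. Members, gene lists and rules were chosen with earlier results of these data known. Named peaks were, per class, the 3 highest in KLF3, the 2 lowest and 2 highest in ΔDL relative to KLF3 (with a log2 height no lower than 8 in KLF3 or ΔDL, respectively), the 2 highest in DBD, and the highest KLF3 peak of each gene list. The Klf3 peaks were added after their values were seen. Some peaks that this rule selects are not reported here. Alternatives varied the list threshold, merged lists, scaling, KLF3 listing, distance, height, reference peaks, motif window and overlap, and each replicate was left out in turn.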

Additional observations from a re-analysis of the deposited data

How the results depend on the processing

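Of 182 alternative values for 75 results, 136 stayed within the spread of the reported value with the same sign, 30 moved and 16 changed sign. The 136 include 29 values without replicate 1 and 30 without replicate 2. A single list always lies within the SD of 2 lists, so these alternatives could only change sign and say little about stability. The causes were not tested, except where an alternative by construction keeps fewer peaks or shifts all peaks alike. Scaling to the same median at peaks called for all 3 constructs gave ΔDL medians of −1.97 (5′ UTR), −0.47 (exon), −0.205 (3′ UTR), −0.63 (gene end) and −1.22 (non-coding), with a change of sign in exon, 3′ UTR and gene-end peaks. The DBD medians became −3.41 (5′ UTR), −0.17 (3′ UTR, sign changed) and −2.77 (non-coding). With KLF3-listed peaks only, ΔDL changed sign to −0.585 (exon), −0.23 (3′ UTR) and −0.43 (gene end), and DBD was −2.285 (exon), −2.15 (3′ UTR, sign changed) and −2.535 (gene end). With peaks of a log2 height of at least 8 in any construct, ΔDL was −0.385 (exon), −0.05 (3′ UTR) and −0.29 (gene end), all with changed sign, and −0.555 (non-coding). DBD was then −3.235 (5′ UTR), −2.485 (exon), −2.33 (3′ UTR, sign changed), −2.72 (gene end) and −2.815 (non-coding). More than 1000 bp from a TSS, exon peaks had 0.87 for ΔDL and 0.04 for DBD (sign changed), and non-coding peaks had 0.07 for ΔDL (sign changed). The 5′ UTR medians stayed negative for both mutants in every alternative run.

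In the upper 50% of each list, shares were 0.0550% (5′ UTR, DBD), 0.533% and 0.922% (3′ UTR, KLF3 and DBD), 1.06% and 1.15% (gene end, KLF3 and ΔDL) and 0.0876% (non-coding, DBD). In the merged lists they were 0.0404% (5′ UTR, DBD), 0.906% (3′ UTR, ΔDL), 1.01% (gene end, KLF3) and 0.0404% (non-coding, DBD). With intron peaks as the reference, relative scores were 0.182 (5′ UTR, KLF3), −0.0380 (5′ UTR, DBD), −0.0760 (3′ UTR, DBD) and 0.0368 (gene end, KLF3, sign changed). Leaving out 1 replicate, the 3′ UTR score of ΔDL ranged from −0.138 to 0.223, with a change of sign without replicate 1. In a 200 bp window, core shares were 94.5% (5′ UTR), 51.9% (exon), 47.0% (3′ UTR), 55.0% (gene end) and 67.9% (non-coding).

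No paired analysis was possible because each sample record covers both replicates, each replicate list has its own peaks, and the heights combine the replicates. ΔDL replicate 1 had the fewest tags, at 1.77 M, and the part of tag number in the lists was not tested. These tag numbers were recovered from the peak scores and are lower than the mapped reads that the paper reports for each library. Each construct is 1 clone, so construct and clone cannot be told apart, and differences in height rest on the sequencing depth and enrichment of single pooled libraries.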
